A study of Mus musculus with 6 samples.

Results

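miR-199 and miR-214 are microRNAs (miRNAs), small RNAs that direct the silencing complex to messenger RNAs with a matching site. They were followed here in extracellular vesicles, the membrane-bound particles that cells release, from mouse bone. The members were chosen by name, as the mature products of the Mir199a-2 and Mir214 hairpins of the Dnm3os locus and of the miR-199 paralogs. They made up 4 of the 1927 rows of the count table: miR-199a-5p, miR-199b-5p, a joined row of miR-199a-3p and miR-199b-3p, and miR-214-3p. Of the 327 rows above 0 in any library, 145 passed the filter on low counts and were tested, and the 4 members were among them. All libraries came from the tibias and femurs of untreated male Swiss-CD1 mice aged 8 weeks, from shafts without epiphyses, freed of marrow by a short spin and then crushed. The lEVs (large vesicles, 3 libraries) were pelleted at 10000 g, and the sEVs (small vesicles, 3 libraries) were recovered from a 30% sucrose cushion at 100000 g. Vesicle size, spin and cushion differ together between the fractions and cannot be told apart. No cells of origin were sorted, so fewer vesicles from a cell type and less miRNA per vesicle cannot be told apart either. The labels do not say whether replicates were separate animals or preparations, and p-values therefore describe only the spread over these libraries, which may be technical.

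A miRNA hairpin is cut into a duplex whose strands, the 5p and 3p arms, come from the same precursor molecule. Usually one arm is kept in the silencing complex and the other is degraded. Dnm3os is a noncoding RNA transcribed from the strand opposite Dnm3, and it carries Mir199a-2 and Mir214 on a single transcript. The locus is active in mesenchyme, fibroblasts and perichondrium, where the transcription factor Twist1 drives it, and mice without Dnm3os have skeletal defects. Among reported targets, miR-199a-5p represses Hif1a, miR-199a-3p represses Mtor and Met, and miR-214-3p represses Atf4, a transcription factor that osteoblasts need.

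The mature sequences show which products the count table could tell apart, so they are given here from RefSeq (GRCm38.p6), with the seed (bases 2 to 8, which pair with targets) in capitals. RefSeq matched 5 of 6 names looked up, miR-214-5p included; miR-199b-5p is named only.
miR-199a-5p: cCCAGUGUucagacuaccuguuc
miR-199a-3p: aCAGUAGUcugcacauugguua
miR-199b-3p: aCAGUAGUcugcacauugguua
miR-214-3p: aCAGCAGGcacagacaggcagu
miR-214-5p: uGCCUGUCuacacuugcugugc
The 3p arms of miR-199a and miR-199b are identical, which is why their counts stand in a single row. The seeds of miR-199a-3p and miR-214-3p differ by the substitutions U5C and U8G (positions from the 5′ end, the base of miR-199a-3p first). No other miRNA of the RefSeq table shares the seed of miR-199a-5p or, beside miR-199b-3p, that of miR-199a-3p. miR-199b-5p has no sequence there, so it could not be compared. The stretch of the Mir199b hairpin that aligns with miR-199a-5p differs from it only at base 10, outside the seed. The seed of miR-214-3p is shared with miR-761, which was listed at 0 in all 6 libraries.

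The hairpins show where the arms lie, with the RefSeq mature arms in capitals.
Mir199a-2: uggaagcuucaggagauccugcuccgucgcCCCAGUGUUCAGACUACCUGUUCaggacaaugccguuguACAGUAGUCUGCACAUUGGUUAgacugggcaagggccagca
Mir214: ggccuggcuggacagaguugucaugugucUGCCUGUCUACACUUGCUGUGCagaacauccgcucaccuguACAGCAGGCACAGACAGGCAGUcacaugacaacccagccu
Mir199b: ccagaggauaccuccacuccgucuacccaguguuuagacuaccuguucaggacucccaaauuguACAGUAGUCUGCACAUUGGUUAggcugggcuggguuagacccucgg
Mir199a-2 (chr1:162217814-162217923, plus strand, GRCm38) and Mir214 (chr1:162223368-162223477, plus strand) both lie within exons of Dnm3os, with 5444 bases between them, and antisense to an intron of Dnm3. Mir199a-1 (chr9:21496495-21496564, minus strand) is antisense to an intron of Dnm2 and carries the same mature arms as Mir199a-2. Mir199b (chr2:32318460-32318569, plus strand) is antisense to an intron of Dnm1. A dynamin gene thus lies opposite each of the 4 hairpins. Aligned without gaps, miR-199a-5p matches the Mir199b hairpin at all but 1 of its 23 bases, with the substitution C10U (the base of miR-199a-5p first). The motifs GGAG, CCCU and GGCU, reported to direct miRNAs into vesicles and searched on the given strand, were absent from these 5 mature sequences. They were held by 8.53%, 8.53% and 11.6% of the 129 tested rows with a sequence.

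Depth set what could be seen of each member. The libraries held 47441 to 114331 counts, with lEVs replicate 1 the smallest. That library stood apart: its TMM factor, the scaling factor of edgeR, was 0.853 against 1.18 and 1.12 for the other lEVs libraries and 0.952 to 0.974 for sEVs. Across the tested miRNAs the common biological coefficient of variation was 0.177 with it and 0.0832 without it. Abundances below are CPM, the counts divided by the library total after TMM adjustment and set to a common scale. Counts were given per mature miRNA, 22 or 23 bases long where a sequence was found, so levels were not divided by length. Whether each count was a whole mature molecule was not tested. Whether different sequences are captured equally well was not tested, so folds between miRNAs or arms below are ratios of counts, not of molecules. Markers of other cells were present in each fraction: the erythroid list (miR-451a, miR-486, miR-144 and miR-16) took 16.5% to 19.2% of the counts in lEVs and 14.5% to 15.6% in sEVs, the endothelial list (miR-126a) 6.52% to 7.80% and 8.24% to 8.60%, and the myeloid list (miR-223 and miR-142a) 4.15% to 5.67% and 4.39% to 4.83%. Most of the erythroid sum was miR-16-5p, with 8755 to 16093 counts a library, and miR-16 is also abundant in many other cells. The rest of that list was lower: miR-486 had 301 to 495 counts a library, miR-451a 6 to 41 and each arm of miR-144 0 to 18. In the myeloid list miR-223-3p had 1222 to 3652 counts a library, miR-142a-3p 508 to 1214 and miR-142a-5p 206 to 674. Whether the miR-142a counts came from myeloid cells was not tested. The lymphoid list took 0.272% to 0.432% in lEVs and 0.428% to 0.490% in sEVs, the skeletal muscle list 1.78% to 2.58% and 1.67% to 2.00%, and the cartilage list 1.44% to 2.05% and 1.12% to 1.20%. In edgeR the lymphoid miR-150-5p was higher in sEVs (log2 fold change 0.91, adjusted p = 0.00268), 1 of 3 tested lymphoid miRNAs, where edgeR called 17.2% of all 145 tested. Of the 16 tested miRNAs of the other 5 lists edgeR called 0, with 6 at an unadjusted p under 0.05, against 37.9% of all tested. DESeq2 called 2 of these 16, miR-126a-3p and miR-133a-3p/133b-3p, against 24.1% of all tested. Every listed miRNA that had a row in the table was above 0 in some library. The part of these other cells in the results was not tested.

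The 4 members differed widely in level within every library, in nearly the same order. The joined 3p row was the second most abundant row of each of the 6 libraries, and miR-199a-5p ranked between 27 and 36. miR-199b-5p ranked between 107 and 124 and miR-214-3p between 87 and 124. The joined 3p row exceeded miR-199a-5p by 16.0-fold to 22.4-fold over the 6 libraries, and miR-199a-5p exceeded miR-199b-5p by 21.8-fold to 32.8-fold. The order of the lowest 2 was less clear. miR-214-3p was above miR-199b-5p in 5 of 6 libraries and equal to it, at 6 counts, in lEVs replicate 1, but the 95% exact binomial interval of its share of their summed counts lay above 50% only in lEVs replicates 2 and 3. Such intervals cover counting error only.

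miR-199a-5p, the 5p arm reported to repress Hif1a, had higher values in all 3 sEVs libraries than in any lEVs library. It had 197, 392 and 362 counts in lEVs replicates 1, 2 and 3 and 409, 530 and 587 in sEVs replicates 1, 2 and 3. Scaled, lEVs had 4868, 3599 and 3739 CPM and sEVs 5644, 5603 and 5270 CPM. The fractions did not overlap, and the lEVs library nearest to sEVs was replicate 1. Mean CPM was 4068 ± 696 in lEVs against 5506 ± 205 in sEVs (SD, n = 3 each). This 1.36-fold difference (log2 fold change 0.45, SE 0.15) missed the threshold of 0.05 in edgeR after Benjamini-Hochberg adjustment over 145 miRNAs (quasi-likelihood test, adjusted p = 0.0669). DESeq2 called it (adjusted p = 0.0205), and limma voom did not (adjusted p = 0.0517). Without lEVs replicate 1 edgeR called it as well, with a log2 fold change of 0.58 (SE 0.13; adjusted p = 0.00137). Without lEVs replicate 2 or 3 the log2 fold change was 0.33 and 0.37 and was not called (edgeR adjusted p = 0.226 and 0.220).

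Shares of library totals need no scaling factor, and on that scale miR-199a-5p was steadier. It held 0.415%, 0.424% and 0.418% of the counts of lEVs replicates 1, 2 and 3 and 0.542%, 0.534% and 0.513% of those of sEVs (exact 95% binomial intervals from 0.359% to 0.477% in lEVs replicate 1, the widest, and from 0.473% to 0.557% in sEVs replicate 3). The lEVs libraries lay within 0.01 percentage points of each other, and lEVs replicate 1 did not stand apart. Mean shares were 0.419% ± 0.00437 and 0.530% ± 0.0146 (SD, n = 3 each). An exact permutation test gave a two-sided p of 0.1, the lowest that 3 against 3 libraries allow. Relative to its mean, the spread over the lEVs libraries was 1.04% in shares and 17.1% in CPM with TMM factors, where counting alone gives about 5.88%. Among all tested miRNAs, 26 of 145 (17.9%) had the 3 sEVs shares above the 3 lEVs shares. For miR-199a-5p edgeR with library totals gave a smaller log2 fold change than with TMM, 0.34 (SE 0.14), and did not call it (adjusted p = 0.109). The median of all tested miRNAs was -0.18 with library totals, against -0.04 with TMM.

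miR-199b-5p, the 5p product of the Dnm1 locus, was counted 6, 18 and 14 times in lEVs replicates 1, 2 and 3 and 13, 20 and 21 times in sEVs. Its CPM values of 148, 165 and 145 in lEVs lay below those of 179, 211 and 189 in sEVs, while as shares of library totals the fractions overlapped. The log2 fold change was 0.33 (SE 0.25; edgeR adjusted p = 0.403), so an interval of 2 SE either side runs from -0.18 to 0.83. At these counts a 1.26-fold difference was not detectable. Of the 5p counts of miR-199, miR-199a-5p took 96.3% ± 0.718 in lEVs and 96.6% ± 0.283 in sEVs (SD, n = 3 each), and the log2 ratio of miR-199a-5p to miR-199b-5p differed by 0.11 (exact two-sided permutation p = 0.6). Whether reads with a mismatch were accepted is not given in the sources used here, so reads that differ only at the C10U position may have been exchanged between these rows.

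The joined 3p row of miR-199a-3p and miR-199b-3p, the arm that represses Mtor and Met, held nearly the same share of each library. It had 4380, 8603 and 8093 counts in lEVs replicates 1, 2 and 3 and 6550, 9596 and 11122 in sEVs. These were 9.23%, 9.30% and 9.34% of the lEVs library totals and 8.68%, 9.66% and 9.73% of those of sEVs. The lEVs shares lay inside the range of the sEVs shares, with sEVs replicate 1 the lowest of all 6. Scaled, lEVs had 108223, 78983 and 83587 CPM and sEVs 90390, 101446 and 99850 CPM, where lEVs replicate 1 was the highest. The log2 fold change was 0.11 (SE 0.15; edgeR adjusted p = 0.602), with an interval of 2 SE either side from -0.20 to 0.41. It depended on the scaling and on lEVs replicate 1: it was 0.01 with library totals, where the tested miRNAs as a whole moved from a median of -0.04 to -0.18, and 0.25 without that library (SE 0.08; edgeR adjusted p = 0.0176). Because 3 hairpins give this sequence, their parts in it cannot be told apart.

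miR-214-3p, the miRNA that represses Atf4, was low in all libraries although its hairpin shares a transcript with Mir199a-2. It had 6, 35 and 31 counts in lEVs replicates 1, 2 and 3 and 21, 26 and 22 in sEVs, or 148, 321 and 320 CPM against 290, 275 and 198 CPM. The fractions overlapped through lEVs replicate 1; the other lEVs libraries lay above the 3 sEVs libraries. The log2 fold change was -0.17 (SE 0.31; edgeR adjusted p = 0.680) and -0.37 without lEVs replicate 1 (SE 0.28; edgeR adjusted p = 0.315). The 2 SE interval with all libraries runs from -0.78 to 0.44. The joined 3p row was 246-fold to 730-fold above miR-214-3p, and miR-199a-5p 11.2-fold to 32.8-fold, with the largest gap of each in lEVs replicate 1. The log2 ratio of miR-214-3p to miR-199a-5p was -4.02 ± 0.879 in lEVs and -4.46 ± 0.245 in sEVs (SD, n = 3 each; two-sided exact permutation test, p = 0.4). Without lEVs replicate 1 the difference of that ratio, sEVs minus lEVs, moved from -0.43 to -0.94.

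**Figure D1:**
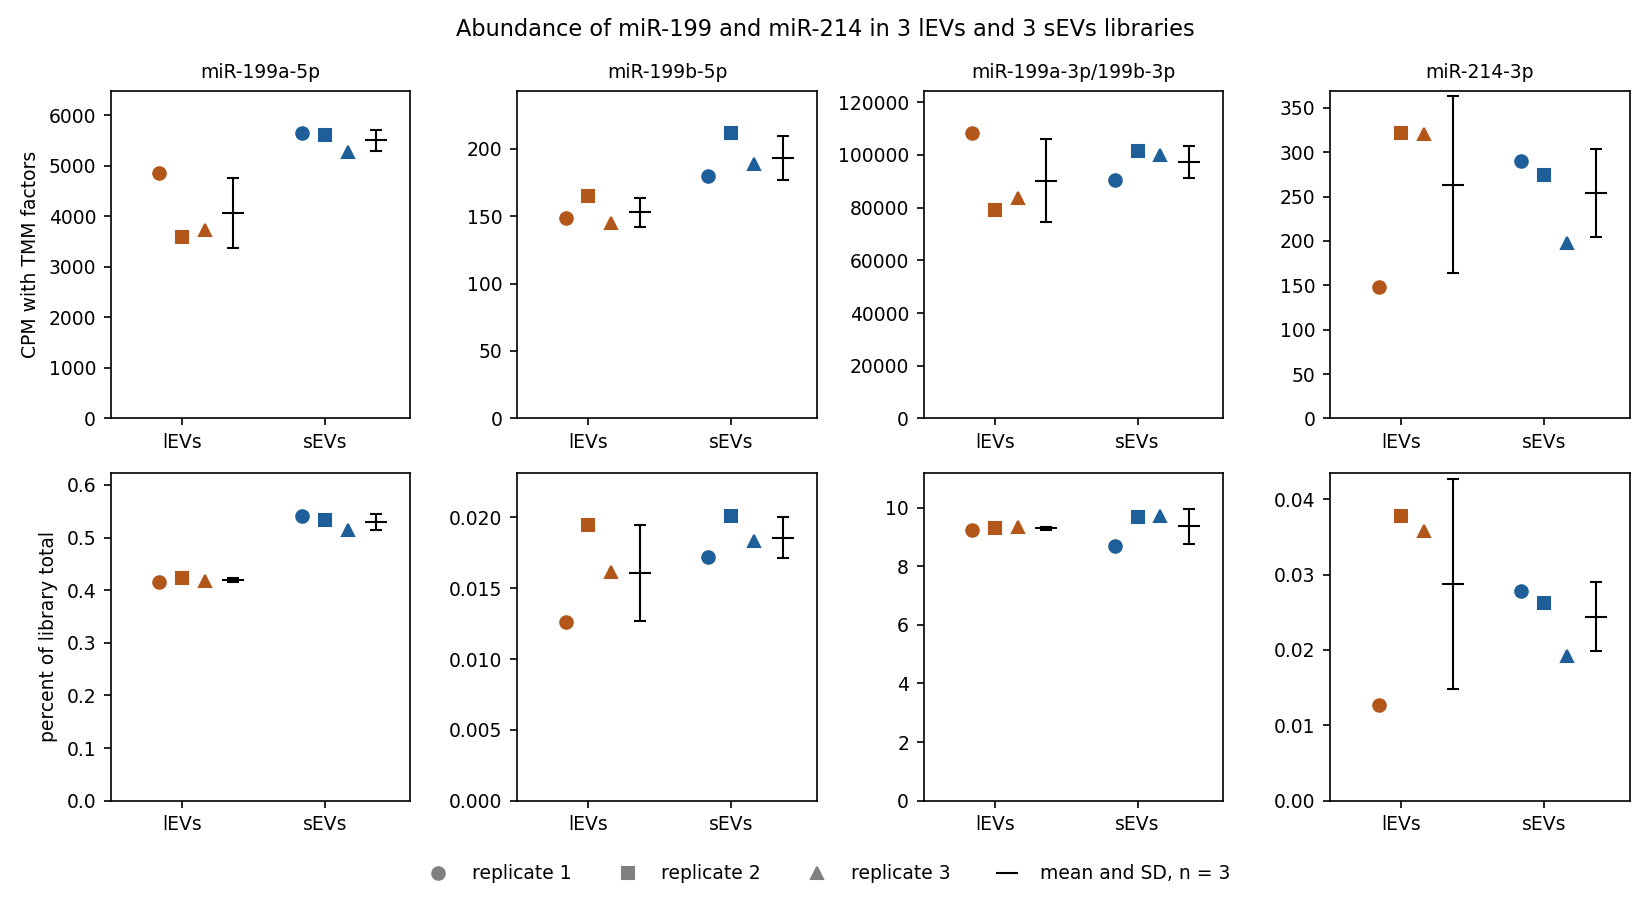
Each point is a library, with CPM with TMM factors in the upper row and percent of the library total in the lower row, for lEVs and sEVs; black marks give the mean and SD of 3 libraries. miR-199a-5p is higher in all 3 sEVs libraries on either scale, the joined 3p row lies between 8.68% and 9.73% of every library, and miR-214-3p is lowest in lEVs replicate 1.

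Of the 4 members, 0 were called by edgeR at an adjusted p under 0.05, where 17.2% of the 145 tested miRNAs were. Limma voom called 0 of the 4 as well, against 29 of all 145 tested (20%), and DESeq2 called 1 of 4, against 24.1%. At an unadjusted p under 0.05 edgeR had 1 of 4, against 37.9%. The 3 CPM values of sEVs lay above those of lEVs for 2 of the 4, both 5p rows of miR-199, against 22.1% of all tested miRNAs. Log2 fold changes were above 0 for 3 of 4, with a median of 0.22, and for 69 of all 145, with a median of -0.04. Without lEVs replicate 1 edgeR called miR-199a-5p and the joined 3p row, 2 of 4, where 34.4% of 151 tested miRNAs were called.

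**Figure D2:**
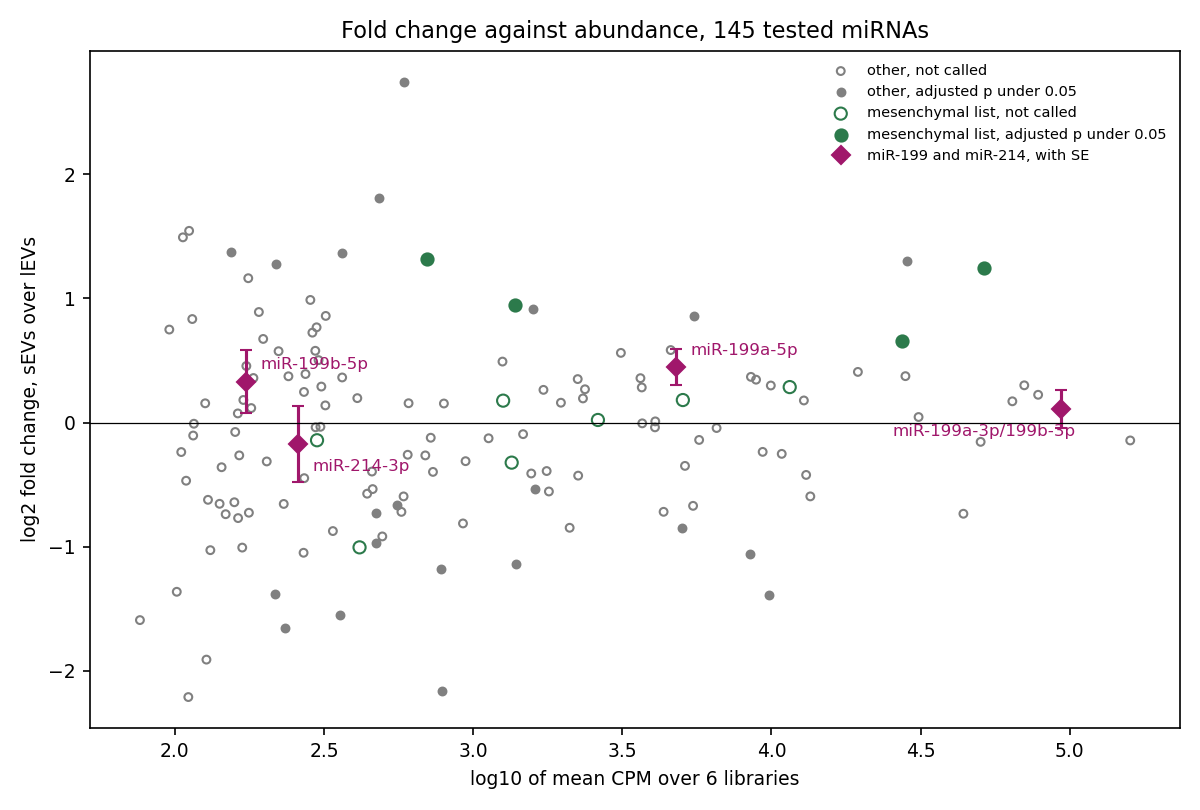
Each point is a tested miRNA, placed by the log10 of its mean CPM and its log2 fold change of sEVs over lEVs; diamonds with SE bars are the miR-199 and miR-214 rows, green points the mesenchymal list, and filled round points have an adjusted p under 0.05. The 4 members lie between log2 fold changes of -0.17 and 0.45, inside the spread of uncalled miRNAs of like abundance.

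**Figure D3:**
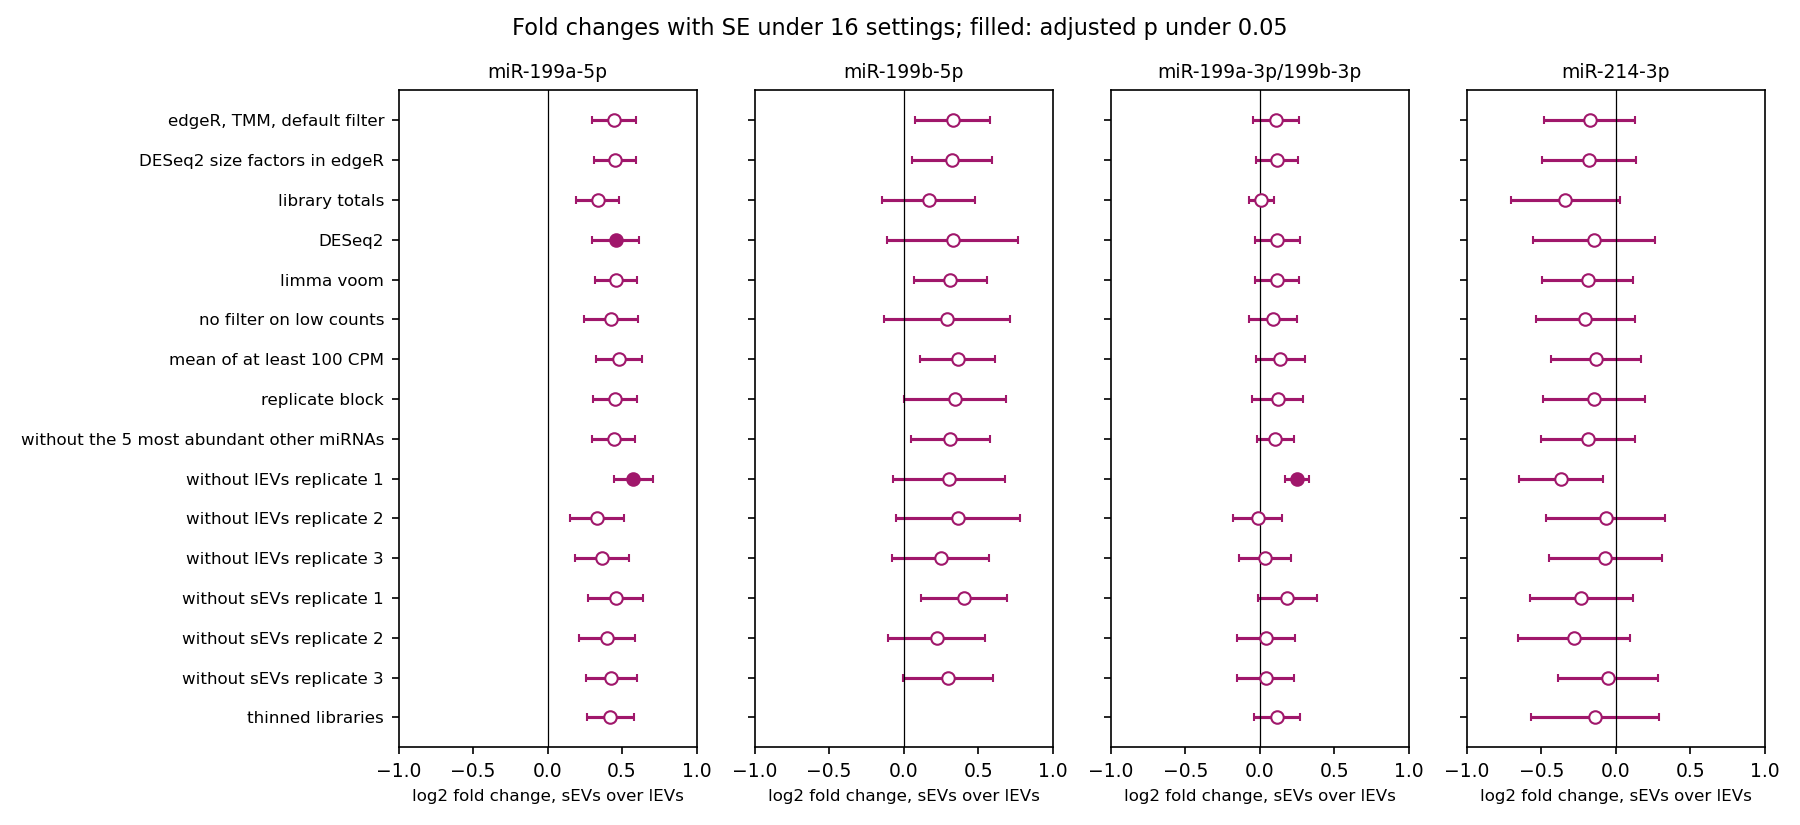
Log2 fold changes of sEVs over lEVs, with SE bars, are shown for each member under 16 settings; filled points have an adjusted p under 0.05. miR-199a-5p stays between 0.33 and 0.58 and is filled with DESeq2 and without lEVs replicate 1, the joined 3p row is filled without that library, and the 2 other members are filled nowhere.

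The arms of a hairpin are counted in the same library, so their ratio does not depend on scaling. The 5p arms of miR-199 (miR-199a-5p and miR-199b-5p summed) made up 4.43%, 4.55% and 4.44% of all miR-199 counts in lEVs replicates 1, 2 and 3 and 6.05%, 5.42% and 5.18% in sEVs. The exact 95% binomial intervals ran from 3.85% to 5.07% in lEVs replicate 1 and from 4.79% to 5.60% in sEVs replicate 3, the libraries with the fewest and the most counts. The fractions did not overlap, and here lEVs replicate 1 lay with the other lEVs libraries. The 3p arm therefore had more counts than the 5p arms in each library, by 21.0-fold to 21.6-fold in lEVs and 15.5-fold to 18.3-fold in sEVs. On the log2 scale the ratio of 5p to 3p counts was -4.42 ± 0.0223 in lEVs and -4.09 ± 0.122 in sEVs (SD, n = 3 each), a 1.25-fold higher ratio in sEVs (two-sided exact permutation test, p = 0.1, again the lowest it can give). Of 7 ratios computed between members and with miR-214-5p, the others that did not contain both miR-199 arms overlapped between the fractions. The ratio of miR-214-3p to miR-199b-5p was added after seeing the data.

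The ratio of the miR-199 arms was not called when fitted with all hairpins. Of 17 hairpins with both arms tested, limma called 3, or 17.6%, at an adjusted p under 0.05, and 6, or 35.3%, did not overlap between the fractions. For miR-199 the log2 difference of 5p over 3p was 0.32 (SE 0.19; limma with a pseudocount of 10 CPM, adjusted p = 0.280). A count model of both arms in edgeR, added after seeing the data, gave 0.32 (SE 0.12; adjusted p = 0.0686). As a mean over all 6 libraries the ratio of miR-199 was the third lowest of the 17, after miR-27a and miR-223. In sEVs alone miR-140 was lower too (-4.11 against -4.09). The miR-27a entry set miR-27a-5p alone against the joined row of miR-27a-3p and miR-27b-3p, so it is not the ratio of a single hairpin. In lEVs replicate 1 miR-27a-5p had 0 counts, so the pseudocount set its value there. The SD of the miR-199 ratio over the lEVs libraries, 0.0226, was the smallest of all 17. The summed 5p shares of library totals varied by 1.77% over the lEVs libraries, where counting alone gives about 5.78%. So small an SD therefore does not show how tightly the ratio is held. The median difference of the 17 hairpins was -0.0013, with 8 of them above 0.

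For miR-214 the arms could not be compared in that fit, since miR-214-5p did not pass the filter. miR-214-5p had 6, 8 and 4 counts in lEVs replicates 1, 2 and 3 and 4, 3 and 11 in sEVs. The 3p arm took 50.0%, 81.4% and 88.6% of the miR-214 counts in lEVs and 84.0%, 89.7% and 66.7% in sEVs, with exact 95% binomial intervals as wide as 21.1% to 78.9% in lEVs replicate 1. The fractions overlapped (exact two-sided permutation p = 0.6), and no difference was detectable at this depth. In lEVs replicate 1 both arms of miR-214 and miR-199b-5p each stood at 6 counts.

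**Figure D4:**
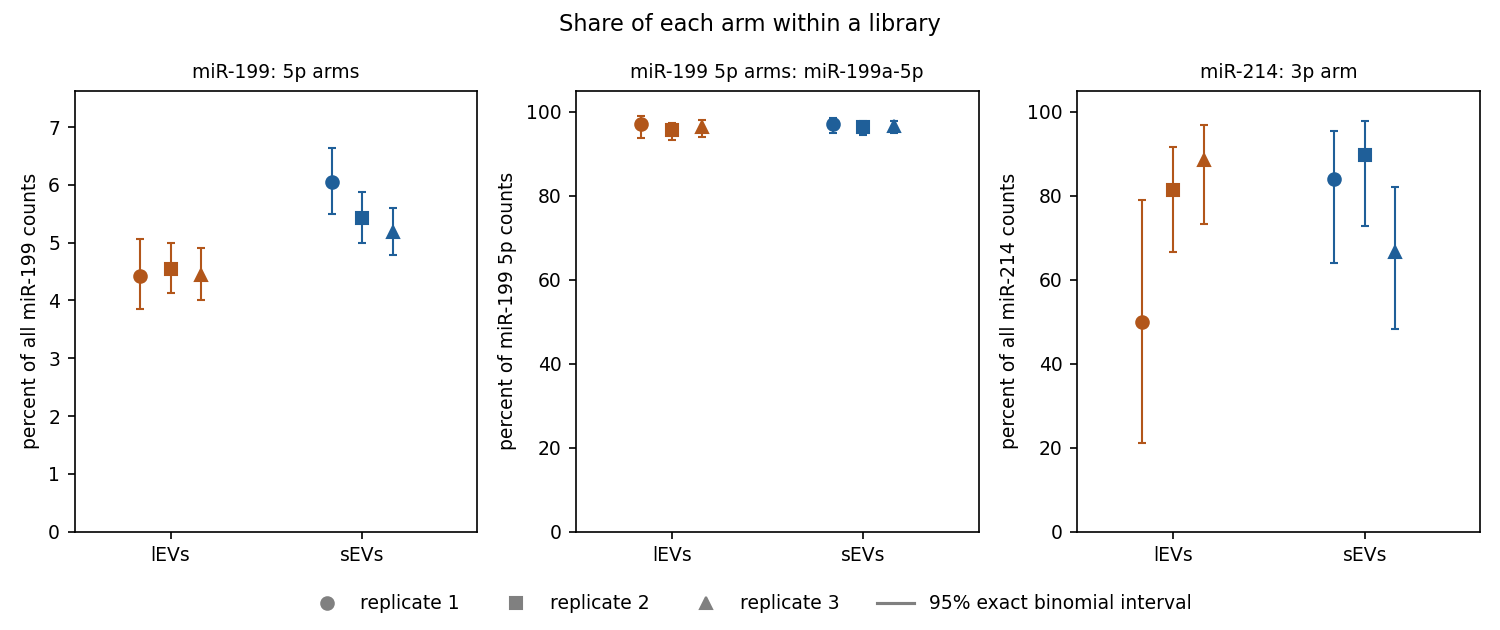
Points are libraries, with exact 95% binomial intervals: the 5p arms in percent of all miR-199 counts, miR-199a-5p in percent of the miR-199 5p counts, and the 3p arm in percent of all miR-214 counts. The miR-199 5p share is 4.43% to 4.55% in lEVs and 5.18% to 6.05% in sEVs, the split of the 5p counts is nearly flat, and the miR-214 intervals are wide.

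**Figure D5:**
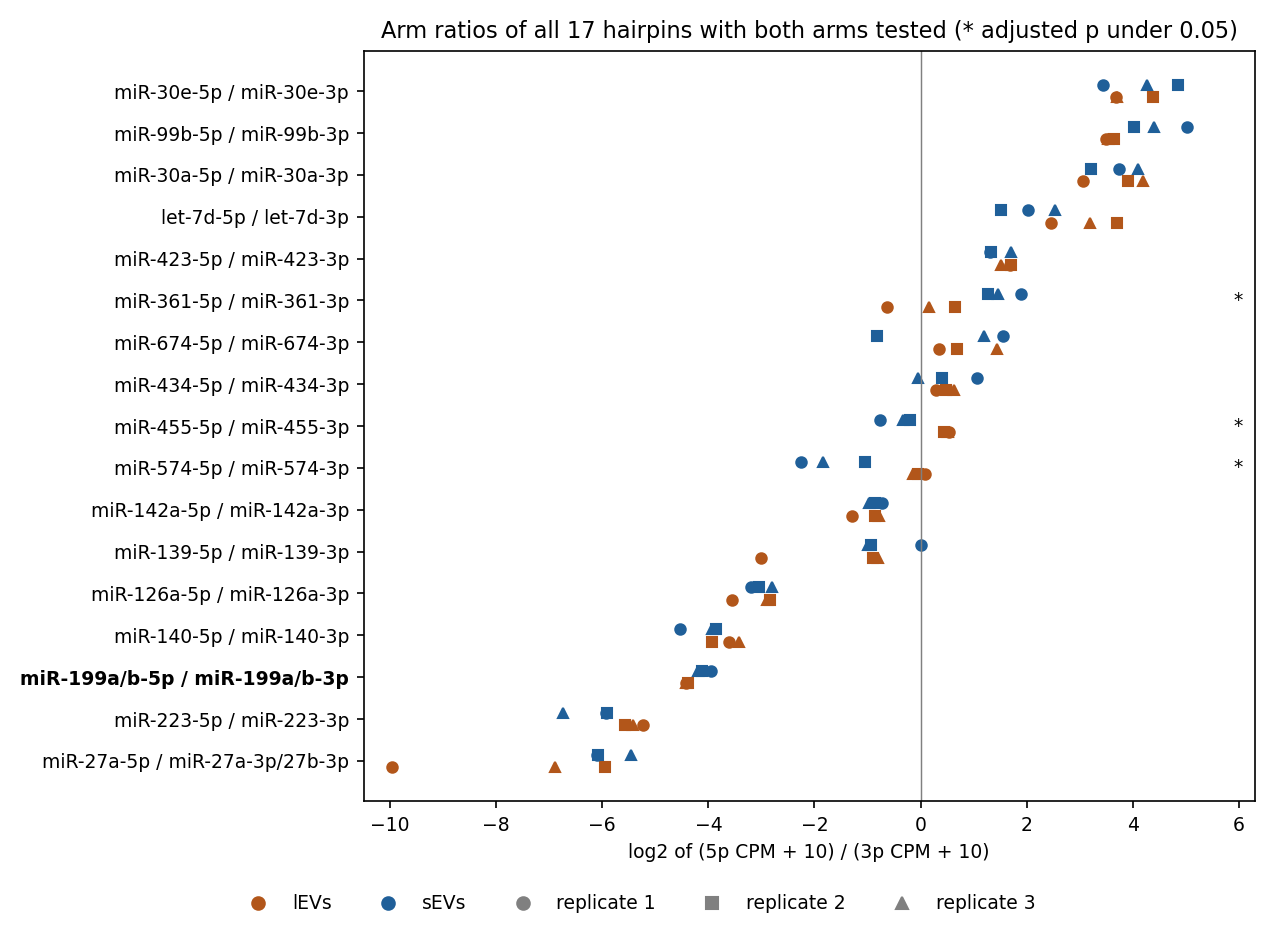
Each row is a hairpin and each point a library, placed by the log2 of (5p CPM + 10) over (3p CPM + 10); asterisks mark adjusted p under 0.05 in limma. The points of miR-199, in bold, sit at about -4 in a tight group, with the 3 sEVs points to the right of the lEVs points.

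Some of the other miRNAs of mesenchymal cells were higher in sEVs. Of a list of 15 such miRNAs, miR-143, miR-145a, miR-125b, miR-10 and miR-99/100 among them, all 15 were counted and 11 tested. In sEVs 4 of the 11 were higher and 0 lower, and 7 were not called (edgeR adjusted p under 0.05), where 8.28% of all 145 tested miRNAs were higher and 17.2% were called in either direction. Because the list was chosen with earlier results of these data known, these counts are a description and not independent support. The list had a median log2 fold change of 0.18 against -0.04 for all tested miRNAs. Those higher were miR-125b-5p, which restrains differentiation (log2 fold change 1.24, SE 0.12), miR-22-3p (1.32, SE 0.20), miR-10b-5p of the Hoxd cluster (0.94, SE 0.15) and miR-143-3p of smooth muscle and fibroblasts (0.65, SE 0.16). The log2 fold changes of the 7 others ran from -1.005 to 0.285 in edgeR and were below 0 for miR-145a-5p (-1.005, SE 0.32; adjusted p = 0.0592), miR-218-5p (-0.32, SE 0.20) and miR-100-5p (-0.14, SE 0.26). DESeq2 called 5 of the 11, the same 4 and miR-145a-5p, which was lower in sEVs there (log2 fold change -0.98, adjusted p = 0.0490). The list took 5.68% to 9.48% of the lEVs counts, the lowest value in lEVs replicate 1, and 12.7% to 13.0% of the sEVs counts. The 4 members together took 9.67% to 9.81% of the lEVs counts and 9.26% to 10.3% of the sEVs counts. Their mean shares, 9.76% ± 0.0726 and 9.93% ± 0.576 (SD, n = 3 each), differed by 0.173 percentage points, more than the SD in lEVs and less than that in sEVs (two-sided exact permutation test, p = 0.6). Whether the members and the list differ was not tested.

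The profiles most like those of the members came from other loci. Likeness was the root mean square difference of log2 CPM, each centred on its own mean over the 6 libraries, among 142 other tested miRNAs with a mean of at least 100 CPM; profiles share library depth and TMM factors, so this is a description. The nearest to miR-199a-5p were let-7a-5p (0.038), miR-342-3p (0.090) and miR-126a-3p (0.092), against a median of 0.49 over all 142. For miR-199b-5p they were miR-181a-5p (0.050), let-7g-5p (0.096) and miR-26a-5p (0.11). The joined 3p row was nearest to miR-99b-5p (0.11), miR-126a-3p, the endothelial miRNA (0.14), and miR-379-5p (0.14). miR-214-3p was nearest to miR-139-5p (0.21), miR-34a-5p (0.22) and miR-103-3p/107-3p (0.25). Among themselves the miR-199 rows differed by 0.18 to 0.21, and miR-214-3p differed from them by 0.43 to 0.57. Of the 142 profiles compared with miR-199a-5p, the joined 3p row was in place 10, miR-199b-5p in place 14 and miR-214-3p in place 90. For the joined 3p row, miR-199a-5p was in place 14, miR-199b-5p in place 21 and miR-214-3p in place 97. The median over all 142 was 0.60 for miR-214-3p, 0.47 for miR-199b-5p and 0.43 for the joined 3p row. With 6 to 35 counts of miR-214-3p a library, counting error adds to its differences. For miR-199b-5p, with 6 to 21 counts a library, counting alone gives a spread of about 31.3% in lEVs and 24.1% in sEVs. Differences as small as those of its nearest profiles therefore do not show which profiles are most like it.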

How the data were processed

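Small RNA was prepared with the QIAseq miRNA kit and read as single reads of 75 bases on a MiSeq, per the labels' protocols. The authors deposited whole-number counts per mature miRNA and library, not normalized. The submitters' processing notes name GRCm38, R 4.2.2 and DESeq2 1.38.2; the aligner, mismatches, strand and use of molecular identifiers were not given in the sources used here. Groups and replicate numbers came from sample titles. The main test was edgeR's quasi-likelihood test (edgeR 4.0.16, R 4.3.3) with TMM scaling, filterByExpr (minimum count 10, minimum total 15) and Benjamini-Hochberg adjustment over 145 miRNAs. Arm ratios used limma 3.58.1, with a joined row set against the sum of those partner arms that were tested. DESeq2 1.42.0, limma voom, other scalings and filters, libraries thinned to 47441 counts in 20 draws, a block and each library left out were alternatives. Single values had exact two-sided permutation tests. In edgeR, SE is the absolute log2 fold change over the square root of F. In limma it is the log2 difference over the moderated t, and DESeq2 reports its own. Members, lists and tests were chosen with earlier results of these data known. Named beside the members were miRNAs of the same hairpins or seeds, the 3 nearest profiles of each member (pseudocount of 1 CPM) and called mesenchymal miRNAs. Hairpin positions from RefSeq matched GENCODE M21 for all 4 hairpins. Replicates within a fraction differed by chi-square over degrees of freedom of 2.35 to 23.7, so none were near-duplicates. Tests were checked on simulated data.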

Additional observations from a re-analysis of the deposited data

How the results depend on the processing

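miR-199a-5p was past the threshold in DESeq2 (log2 fold change 0.46) and in 2 of 20 thinned draws. Leaving out each library in turn, its log2 fold change ranged from 0.33 to 0.58, that of the joined 3p row from -0.014 to 0.25, past the threshold only without lEVs replicate 1 for each, and below 0 for the joined row without lEVs replicate 2. The number of called miRNAs, 25 of 145 tested, was 53 of 327 without the filter on low counts. With a library left out it ran from 16 of 152, without lEVs replicate 3, to 52 of 151, without lEVs replicate 1. Called arm ratios, 3 in all, fell to 1 with the replicate block and to 0 to 1 with a library left out, where fewer libraries were fitted. With a library left out, differences that turned were the log2 ratios of miR-199a-5p to miR-199b-5p (-0.029 to 0.27), of miR-214-3p to the joined 3p row (-0.61 to 0.17) and of miR-214-3p to miR-214-5p (-0.37 to 1.10), and the shares in percentage points of the joined 3p row (-0.122 to 0.404), of miR-214-3p (-0.0124 to 0.000200) and of all 4 rows (-0.00206 to 0.505). The log2 ratio of the miR-199 arms stayed between 0.26 and 0.38. Whether the replicate numbers pair the samples is not known. Deviations of same-numbered libraries correlated at -0.073, 0.070 and 0.37, and those of differently numbered libraries at -0.31 to 0.14. So few libraries cannot decide it. With the replicate number as a block, log2 fold changes were 0.45 for miR-199a-5p (edgeR adjusted p = 0.0766), 0.34 for miR-199b-5p, 0.12 for the joined 3p row and -0.15 for miR-214-3p, and 26 miRNAs were called. In the thinned libraries miR-199b-5p did not pass the filter and has no value. Depth limits miR-199b-5p and both arms of miR-214, with 3 to 35 counts a library.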
